A study of Mus musculus with 9 samples.

Results

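The Zfp genes are the mouse genes named by number for zinc finger proteins, most of them DNA-binding factors built from repeated C2H2 fingers. They were taken here as all gene symbols of Zfp followed by digits and at most 1 letter, leaving out Zfp36, with a mean of at least 1 FPKM over the 3 libraries of cells given LPS alone. FPKM is fragments scaled to transcript length and to the mapped fragments of the library. Of 55335 genes in the deposited table, 399 symbols had such a name and 221 reached that level. Members were thus chosen by their measured LPS values, so the comparisons against LPS are descriptions, whereas LPS+CPZ against LPS+EtOH used no value of the rule.

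A C2H2 finger is a short fold held by a zinc ion that reads a few bases of DNA, and a run of fingers reads a longer site. Many of these proteins also carry a KRAB domain at their start, which recruits the corepressor Trim28 and, through it, the histone methyltransferase Setdb1, HP1 proteins and the NuRD complex. KRAB genes are known for silencing retroviral elements, lie in clusters of close copies, and are usually transcribed at low levels. Those without KRAB include activators, corepressors and proteins that act on RNA or ribosomes.

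All 9 libraries came from mouse peritoneal macrophages, the phagocytes of the abdominal cavity, exposed for 4 h to 1 µg/mL lipopolysaccharide (LPS), a bacterial cell wall component. The LPS+CPZ group also received CPZ, a name the labels do not expand, at 100 µM, LPS+EtOH received 5% ethanol, and LPS received nothing else. The study's title concerns ethanol, macrophage polarization in colitis and the TRPV1 channel. Each group had 3 libraries, each a pool of 3 RNA samples, and the labels do not say that these came from separate animals, so p-values measure the spread between pools. Unstimulated cells and cells given either agent without LPS were not analysed here.

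The libraries also held transcripts of other cells, and their levels differed between groups. The summed level of 7 macrophage markers was 1112 to 1304 FPKM in LPS+CPZ, 2757 to 3061 in LPS+EtOH and 1619 to 2105 in LPS. Without Cd14, which carried that order, it was 687 to 902.9 FPKM in LPS+CPZ, 728.1 to 833.2 in LPS+EtOH and 876.1 to 1074 in LPS. For 9 B cell markers it was 1204 to 1418 FPKM in LPS+CPZ, 144 to 197 in LPS+EtOH and 1468 to 2118 in LPS, most of it from Ighm. The other 8 B cell markers summed to 143.9 to 186.1 FPKM in LPS+CPZ, 36.16 to 56.58 in LPS+EtOH and 466.7 to 708.1 in LPS, and all 8 were lower in LPS+CPZ than in LPS (limma, adjusted p under 0.05). The 10 neutrophil markers summed to 6384 to 6890 FPKM in LPS+CPZ, 43750 to 48330 in LPS+EtOH and 3857 to 5428 in LPS, most of it from S100a8 and S100a9. Single markers differed, since in LPS+CPZ against LPS 3 of the 10 were higher and 3 lower (limma, adjusted p under 0.05). Between the treated groups 9 were lower in LPS+CPZ and 1 was higher, namely Ly6g, at a mean of 274 FPKM in LPS+CPZ, 156 in LPS+EtOH and 16.9 in LPS. Globin genes took 0.0452 to 0.0972% of all FPKM in LPS+CPZ, 0.172 to 0.221% in LPS+EtOH and 11.5 to 29.4% in LPS. No macrophage, B cell or neutrophil marker was listed at 0 in all libraries of a group, though the macrophage receptor gene Mertk was at 0.126 to 0.316 FPKM in LPS+CPZ, 0 to 0.0509 in LPS+EtOH and 0.108 to 0.278 in LPS. In such bulk samples fewer cells of a type and less RNA per cell cannot be told apart, and the part of these differences in the results on Zfp genes was not tested.

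Zfp genes were weakly expressed. Their LPS means ran from 1.03 to 37.33 FPKM with a median of 2.98, against a median of 6.41 for 9207 other protein-coding genes above the same floor. The 221 genes together took 0.259 to 0.33% of all FPKM in LPS+CPZ, 0.186 to 0.24% in LPS+EtOH and 0.321 to 0.37% in LPS. None was listed at 0 in any library. The 3 just inside the floor were Zfp46, Zfp444 and Zfp780b, at LPS means of 1.06, 1.05 and 1.03 FPKM. The 3 just outside it were Zfp125, Zfp799 and Zfp951, at 0.994, 0.989 and 0.987 FPKM. Since FPKM holds no read counts, the depth behind a value is unknown and no counting interval is given.

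The typical Zfp gene was lowest in LPS+EtOH. The median over the 221 genes was 2.32 ± 0.219 FPKM in LPS+CPZ, 1.01 ± 0.119 in LPS+EtOH and 2.96 ± 0.365 in LPS (SD, n = 3 libraries each). Counted per library, 167, 187 and 176 of them reached 1 FPKM in LPS+CPZ, 119, 104 and 111 in LPS+EtOH, against 208, 215 and 219 in LPS. The 3 groups did not overlap in this count, but the LPS libraries set the membership and had to stand high. The same count over other genes was not made. At matched LPS levels, 69.2% of Zfp genes and 67.2% of other protein-coding genes were higher in LPS+CPZ than in LPS+EtOH (limma, adjusted p under 0.05).

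**Figure D1:**
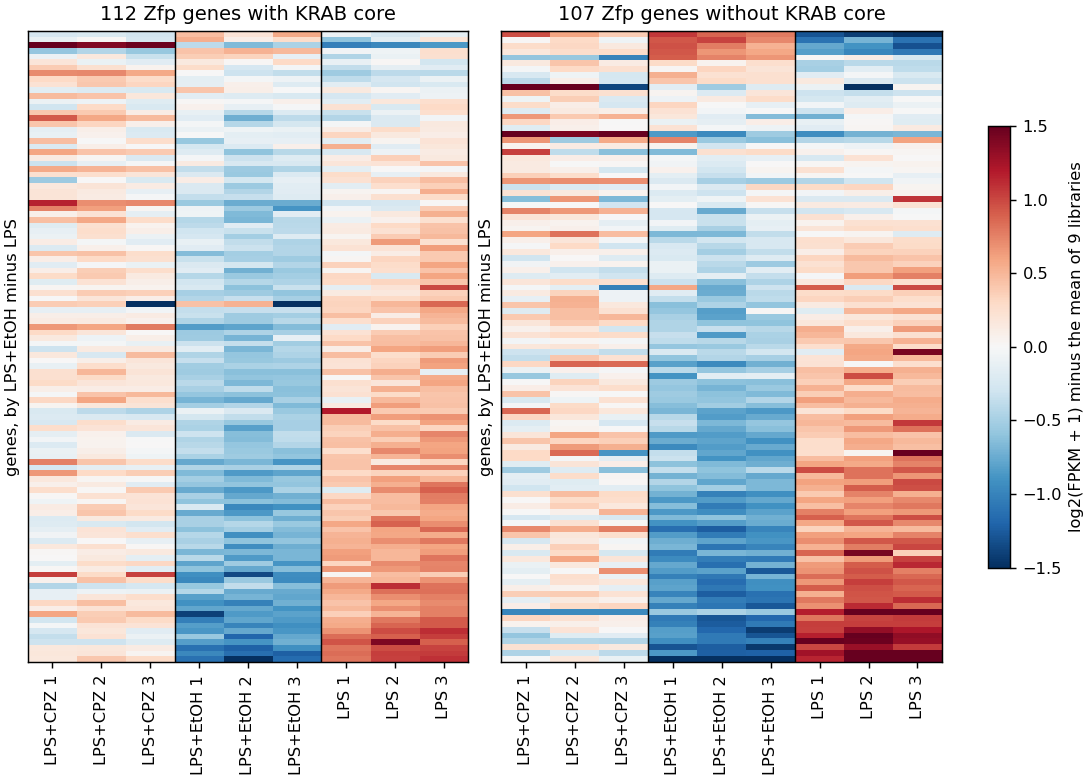
Each row is 1 Zfp gene and each column 1 library; colour is log2(FPKM + 1) minus the gene's mean over the 9 libraries (values beyond 1.5 in size take the end colour), with the 112 KRAB genes on the left, the 107 others on the right and rows ordered by LPS+EtOH minus LPS. Most rows are blue in the LPS+EtOH columns, while a few at the top are red there.

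Most other genes shifted in the same way. Changes were fitted with limma on log2(FPKM + 1) over the 11721 genes that reached 1 FPKM in 3 libraries or more. That scale understates the change of weak genes. The median change over all tested genes was 0.55 for LPS+CPZ against LPS+EtOH, -0.82 for LPS+EtOH against LPS and -0.33 for LPS+CPZ against LPS. Over the 215 tested Zfp genes it was 0.60, -0.87 and -0.26 in the same order. A 2nd scale, called median-ratio here, divides each library by its median ratio to a typical library, and brings the median of all genes to 0.04, -0.01 and -0.06. On that scale the Zfp medians were 0.20, -0.25 and -0.04. The sign of each Zfp median was the same on both scales, but its size depended on the shift of all genes.

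Between LPS+CPZ and LPS+EtOH, 153 of the 221 Zfp genes were higher and 10 lower in LPS+CPZ (limma, adjusted p under 0.05), 58 were not called and 6 of these 58 were not tested. Of all tested genes 61.4% were higher and 15.2% lower. Set beside other protein-coding genes at matched LPS levels, 69.2% of Zfp genes and 67.2% of the others were higher, and 4.52% and 8.48% were lower. On the median-ratio scale 93 Zfp genes were higher and 47 lower, against backgrounds of 33.9% and 33.0%, with 42.1% higher beside 39.3% of other genes at the same levels. Lower calls made up 21.3% of Zfp genes and 21.9% of the others on that scale.

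In LPS+EtOH against LPS, 14 Zfp genes were higher and 161 lower, where 19.0% of all tested genes were higher and 64.6% lower. At matched LPS levels 72.9% of Zfp genes and 71.8% of other genes were lower, and 6.33% and 10.7% were higher. In LPS+CPZ against LPS, 26 were higher and 94 lower, beside 20.7% and 48.4% of all tested genes. Lower calls made up 42.5% of Zfp genes there and 48.9% of others at the same levels, and higher calls 11.8% and 15.4%. Median-ratio scaling gave 60 higher and 97 lower for LPS+EtOH against LPS (all genes 39.9% and 40.1%), and 49 higher and 59 lower for LPS+CPZ against LPS (all genes 28.6% and 32.5%). By range of LPS level, the direction of the gap varied for genes lower in LPS+EtOH than in LPS as deposited. At 1 to 2 FPKM 75.8% of 62 Zfp genes and 63.2% of other genes were lower. The shares were 84.2% of 76 and 78.5% at 2 to 4 FPKM, and 58% of 50 and 76.8% at 4 to 8 FPKM. These comparisons share the LPS libraries, whose values chose the members, so the counts against LPS are descriptions.

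**Figure D2:**
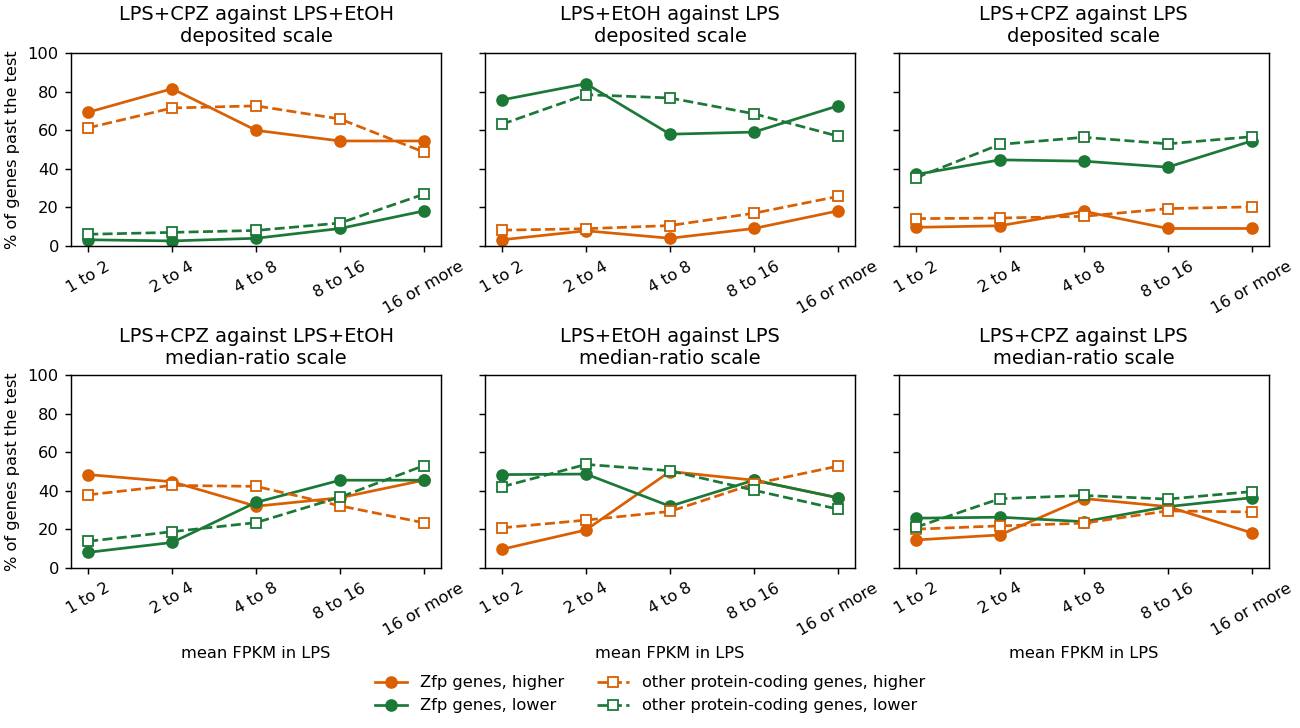
Percent of genes past the test (y axis) by mean FPKM in LPS (x axis, 5 ranges) for Zfp genes (filled circles) and other protein-coding genes (open squares), higher in orange and lower in green, for 3 comparisons on the deposited scale (top) and the median-ratio scale (bottom). The widest gap among ranges with 50 or more Zfp genes is at 4 to 8 FPKM in the middle column, where on the median-ratio scale 50% of Zfp genes were higher and 32% lower, against 29.3% and 50.4% of the others; the ranges above 8 FPKM hold only 22 and 11 Zfp genes.

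Some calls did not depend on the scale. Under the deposited, TPM, median-ratio and quantile scales alike, 61 Zfp genes (27.6%) were higher and 8 (3.62%) lower in LPS+CPZ than in LPS+EtOH, against 26.9% and 13.8% of all tested genes. Likewise 11 (4.98%) were higher and 72 (32.6%) lower in LPS+EtOH than in LPS, against 16.8% and 34.4% of all tested genes. In LPS+CPZ against LPS, 23 (10.4%) were higher and 52 (23.5%) lower, against 18.5% and 31.3%. Among them 43 (19.5%) were lower in both treated groups than in LPS, against 21.9% of all tested genes. Of those 43, 17 were also higher in LPS+CPZ than in LPS+EtOH, and 1 was lower. Another 10 genes were higher in LPS+CPZ than in both other groups, 6 were higher in LPS+EtOH than in both, and 7 were higher in both treated groups than in LPS, where all tested genes gave 5.46%, 8.28% and 10.2%. All tested genes include genes under the LPS floor that passed through the treated groups, which raises their share above LPS. As deposited, 19.0% of all tested genes but 10.7% of others at matched levels were higher in LPS+EtOH than in LPS. Matched shares over 4 scales were not computed, and Zfp shares are of 221 genes, 6 of them not tested.

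**Figure D3:**
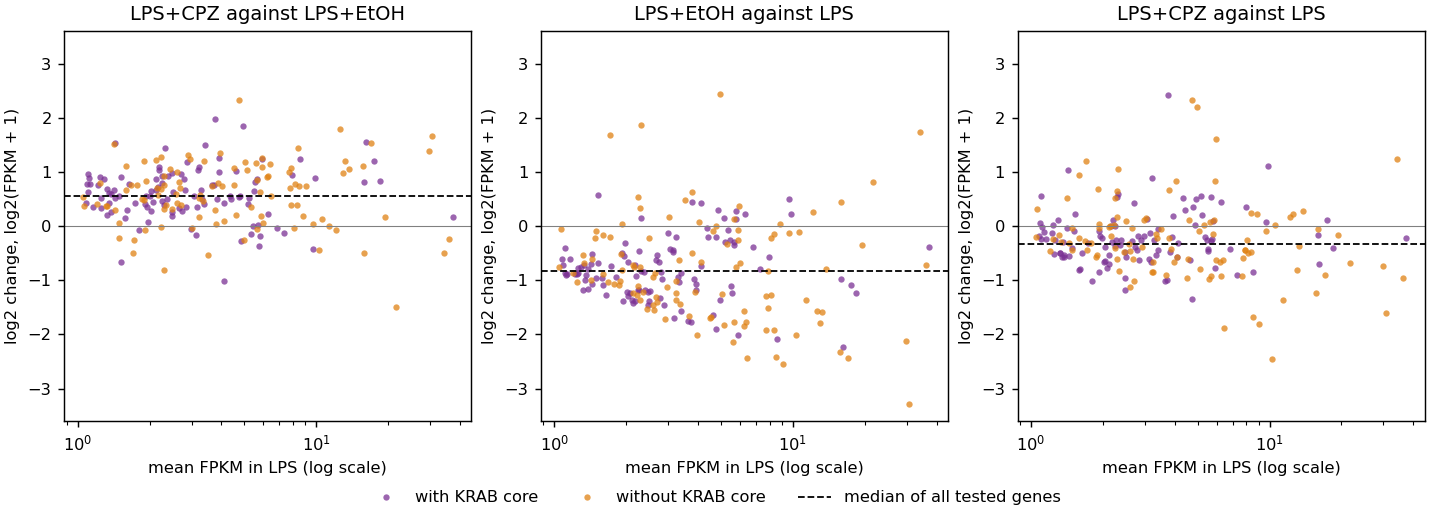
Change on the log2(FPKM + 1) scale (y axis) against mean FPKM in LPS (x axis, log scale) for each tested Zfp gene with a predicted protein, with KRAB core in purple and without in orange; the dashed line is the median of all tested genes, at 0.55, -0.82 and -0.33. Zfp746 (2.34) lies highest in the left panel, and Zfp608 (2.45) highest and Zfp362 (-3.28) lowest in the middle one.

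The KRAB class was set apart by sequence, independently of expression. The A box core was searched in proteins translated from GENCODE M21 transcripts, and 112 genes matched at least 6 of its 7 fixed places, 80 of them at all 7. Another 107 genes did not, and Zfp783 and Zfp939 had no annotated protein. Genes called without KRAB here are those without this core, 3 of which matched at 5 places, and a divergent KRAB domain could be missed. KRAB genes carried a median of 11 fingers, against 7 in the others, and their LPS median was 2.5 FPKM, against 3.78. In LPS+CPZ against LPS+EtOH, 81 KRAB genes (72.3%) were higher and 3 lower, beside 70 (65.4%) and 7 of the genes without KRAB, where 61.4% of all tested genes were higher and 15.2% lower. The medians of the change were 0.56 and 0.62. On the median-ratio scale 45 KRAB genes were higher and 16 lower, beside 47 and 31 of the others, with all tested genes at 33.9% and 33.0%. In LPS+EtOH against LPS 86 KRAB genes and 73 others were lower, and 4 and 10 were higher, beside 64.6% and 19.0% of all tested genes. No test of the difference between the classes was run.

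KRAB genes share sequence, so fragments may be assigned among close copies. In 24 of the 221 genes at least 20% of the 50-base stretches of their transcripts also occurred in transcripts of another gene, up to 86.8% in Zfp993. Their values are uncertain. Without those 24, 137 of 197 were higher and 9 lower in LPS+CPZ than in LPS+EtOH, against 153 and 10 of all 221. All tested genes gave 61.4% and 15.2%. In LPS+EtOH against LPS the counts were 13 and 148, against 14 and 161. In LPS+CPZ against LPS, 19 (9.64%) were higher and 87 (44.2%) lower, against 26 (11.8%) and 94 (42.5%). All tested genes gave 20.7% and 48.4% there. Of the 23 Zfp genes higher in LPS+CPZ than in LPS on every scale, 6 were among those 24.

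Among KRAB genes called in LPS+CPZ against LPS without overlap of the 2 groups, the largest log2 rise was that of Zfp874b (ENSMUSG00000059839). It had 25.9, 23.0 and 24.5 FPKM in LPS+CPZ, 6.0, 4.81 and 5.62 in LPS+EtOH, against 3.51, 3.71 and 4.07 in LPS. All LPS+CPZ libraries lay far above the other 6. Its log2 change in LPS+CPZ against LPS+EtOH was 1.98 (SE 0.11, limma adjusted p = 4.47e-07), and 1.24 on the median-ratio scale. Against LPS the LPS+CPZ mean was 6.50-fold higher. Only 13.5% of its 50-base stretches were shared.

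Several neighbours of Zfp874b were high in LPS+CPZ too. Placed along the chromosomes by GENCODE M21, 81 of the 221 genes lay in 10 runs of at least 4 members with gaps under 500 kb, and these runs were examined after the values of Zfp874b were seen. The run on chromosome 13 from Zfp712 to Zfp85 held 16 members, all with KRAB. There 12 were higher in LPS+CPZ than in LPS+EtOH and none was lower, a count near the 61.4% of all tested genes and 69.2% of Zfp genes that were higher. Of the 23 genes higher in LPS+CPZ than in LPS on all 4 scales, 5 were among these 16, namely Zfp874a, Zfp874b, Zfp729a, Zfp729b and Zfp738. Such calls made up 18.5% of all tested genes and 10.4% of Zfp genes. Zfp874b, which led to this run, is 1 of the 5, and 4 of the 16 had at least 20% of their stretches shared.

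Zfp874a averaged 3.99 ± 0.942 FPKM in LPS+CPZ, 0.704 ± 0.132 in LPS+EtOH and 1.43 ± 0.290 in LPS (SD, n = 3). Zfp738 averaged 2.10 ± 0.143 FPKM in LPS+CPZ, 0.594 ± 0.0949 in LPS+EtOH and 1.11 ± 0.114 in LPS. Each had all LPS+CPZ values above all others. Zfp729b, with 39.9% of its stretches shared, averaged 8.62 ± 0.739 FPKM in LPS+CPZ, 4.28 ± 0.757 in LPS+EtOH and 5.67 ± 0.839 in LPS. Not every gene of the run behaved so, since 3 were lower in LPS+CPZ than in LPS and its median change in that comparison was -0.12.

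Chromosome 17 held 2 runs made mostly of KRAB genes. In the run from Zfp871 to Zfp414, with 9 members, 8 were lower in LPS+EtOH and 6 lower in LPS+CPZ than in LPS, with median changes of -1.22 and -0.66. In the run from Zfp160 to Zfp945, with 14 members, 10 were lower in LPS+EtOH and 1 in LPS+CPZ than in LPS, with medians of -0.48 and -0.13. All tested genes gave 64.6% and 48.4% lower in these comparisons, and the difference between the runs was not tested.

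Several other KRAB genes also rose in LPS+CPZ against LPS+EtOH. Zfp445, which helps maintain DNA methylation at imprinted genes, had 8.69, 10.51 and 9.64 FPKM in LPS+CPZ, 2.996, 2.07 and 2.89 in LPS+EtOH, against 14.2, 16.7 and 17.5 in LPS. The groups did not overlap, and the log2 change in LPS+CPZ against LPS+EtOH was 1.55 (SE 0.14, limma adjusted p = 5.31e-06) and 0.89 on the median-ratio scale. Zfp809, which silences murine leukaemia virus in mouse stem cells, followed the same order at 4.33 ± 0.286 FPKM in LPS+CPZ, 1.26 ± 0.201 in LPS+EtOH and 8.55 ± 0.754 in LPS (SD, n = 3). Zfp777 averaged 7.54 ± 2.31 FPKM in LPS+CPZ, 1.32 ± 0.372 in LPS+EtOH and 4.93 ± 0.905 in LPS, with a log2 change of 1.85 between the treated groups (SE 0.22, limma adjusted p = 2.83e-05).

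The opposite order was seen in Zfp719 and Zfp949. Zfp719 had 2.30, 2.64 and 2.33 FPKM in LPS+CPZ, 5.64, 6.08 and 5.91 in LPS+EtOH, against 3.76, 3.72 and 4.86 in LPS. It fell in LPS+CPZ against LPS+EtOH, with a log2 change of -1.01 (SE 0.12, limma adjusted p = 2.78e-05) and -1.71 on the median-ratio scale. Zfp949 averaged 1.36 ± 0.0465 FPKM in LPS+CPZ, 2.76 ± 0.481 in LPS+EtOH and 1.52 ± 0.149 in LPS. Among genes with the matched KRAB core these 2 alone were lower in LPS+CPZ than in LPS+EtOH on all 4 scales.

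For 3 abundant KRAB genes the comparison of the treated groups depended on the scale. Zfp655, known as the Vav-interacting factor Vik, had 23.1, 23.4 and 20.9 FPKM in LPS+CPZ, 13.9, 10.9 and 10.4 in LPS+EtOH, against 9.20, 10.2 and 10.1 in LPS. The 3 groups did not overlap. Its log2 change in LPS+CPZ against LPS+EtOH was 0.89 as deposited (SE 0.12, limma adjusted p = 9.12e-05) but 0.11 on the median-ratio scale, where it did not pass. Zfp52, the gene with the highest LPS mean, averaged 31.9 ± 4.01 FPKM in LPS+CPZ, 28.3 ± 2.96 in LPS+EtOH and 37.3 ± 3.59 in LPS, and its log2 change of 0.16 between the treated groups (limma adjusted p = 0.28) was -0.64 on the median-ratio scale. Zfp871 averaged 13.6 ± 1.11 FPKM in LPS+CPZ, 7.31 ± 1.52 in LPS+EtOH and 18.4 ± 0.549 in LPS, and its change of 0.83 between the treated groups was 0.08 on the median-ratio scale.

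The bases before the transcription start are shown for Zfp874b, Zfp746 and Zfp655, which were higher in LPS+CPZ than in LPS on all 4 scales, and for Zfp523, which was high in both treated groups. Each line holds the 100 bases before the start from RefSeq, build GRCm38.p6, at chr13:67484254-67484353 on the minus strand, chr6:48086594-48086693 on the minus strand, chr5:145231642-145231741 on the plus strand and chr17:28177096-28177195 on the plus strand. Capitals mark any of 4 words searched on both strands.
Zfp874b: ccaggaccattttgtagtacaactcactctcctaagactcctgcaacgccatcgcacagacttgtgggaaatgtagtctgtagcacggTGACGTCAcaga
Zfp746: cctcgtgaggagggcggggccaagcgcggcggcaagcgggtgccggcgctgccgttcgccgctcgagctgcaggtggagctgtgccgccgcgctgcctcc
Zfp655: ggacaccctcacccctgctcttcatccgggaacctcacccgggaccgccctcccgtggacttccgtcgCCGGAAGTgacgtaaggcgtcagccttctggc
Zfp523: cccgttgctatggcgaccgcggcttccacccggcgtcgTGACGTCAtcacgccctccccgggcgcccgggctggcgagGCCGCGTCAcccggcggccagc
Zfp874b and Zfp523 hold TGACGTCA, the word read by CREB and ATF factors, Zfp655 holds the ETS word CCGGAAGT, and Zfp523 also holds TGACNNNGC, the core read by Nrf2, on the other strand. Zfp746 holds none of the 4 in these bases.

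RefSeq promoters of 250 bases were found for 186 of the 221 genes, with the first listed start used where there were several. TGACGTCA lay in 4.3% of them, against 2.93% of other genes above the LPS floor and 1.62% of all 27025 genes in the table. For CCGGAAGT the shares were 8.6%, 6.67% and 2.93%, and for TGACNNNGC 15.1%, 12% and 10.1%. GAANNTTC, the core of the heat shock element, lay in 6.99%, 4.93% and 6.78%. A match says only that the letters occur there.

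The machinery that KRAB proteins recruit was followed through a list of 26 genes. Trim28 had 13.0, 17.3 and 18.0 FPKM in LPS+CPZ, 5.70, 5.63 and 4.86 in LPS+EtOH, against 27.1, 33.8 and 28.4 in LPS, with no overlap between groups. Setdb1 averaged 2.94 ± 0.177 FPKM in LPS+CPZ, 1.32 ± 0.107 in LPS+EtOH and 7.40 ± 0.542 in LPS (SD, n = 3). Of the 26 genes, 21 rose and 2 fell in LPS+CPZ against LPS+EtOH (limma, adjusted p under 0.05), where 61.4% of all tested genes rose and 15.2% fell, with a median change of 0.93 against 0.55 for all tested genes. On the median-ratio scale 15 rose and 7 fell, beside 33.9% and 33.0% of all tested genes.

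Against LPS, 23 of the 26 were lower and none higher in LPS+EtOH, and 19 were lower and 1 higher in LPS+CPZ, with median changes of -1.52 and -0.74, where 64.6% and 48.4% of all tested genes were lower. On the median-ratio scale 18 were lower and 3 higher in LPS+EtOH, and 14 lower and 2 higher in LPS+CPZ, where 40.1% and 32.5% of all tested genes were lower. Chd4, the NuRD remodeller, was among those that fell between the treated groups, at 37.0 ± 2.5 FPKM in LPS+CPZ, 51.1 ± 0.739 in LPS+EtOH and 144 ± 7.54 in LPS. Atf7ip, a Setdb1 partner, was the 1 gene higher in LPS+CPZ than in LPS, at 15.9 ± 2.25 FPKM in LPS+CPZ, 12.1 ± 0.499 in LPS+EtOH and 10.4 ± 0.480 in LPS. The 8 B cell markers other than Ighm were, like Trim28 and Setdb1, lowest in LPS+EtOH and highest in LPS. Of 6 markers of large peritoneal macrophages, 4 were lower and 1 higher than in LPS in each treated group (limma, adjusted p under 0.05). Between the treated groups 3 of the 6 were higher in LPS+CPZ and 1 was lower, where 61.4% and 15.2% of all tested genes were. The part of either cell type was not tested.

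The highest value of any member in the treated groups came from a gene without KRAB. Zfp703 (ENSMUSG00000085795), a corepressor gene whose human counterpart is amplified in breast cancer, had 82.8, 84.4 and 75.5 FPKM in LPS+CPZ, 132, 116 and 97.9 in LPS+EtOH, against 39.5, 36.2 and 26.8 in LPS. The groups did not overlap, and both treated groups lay above LPS, 2.37-fold in LPS+CPZ and 3.38-fold in LPS+EtOH. Between the treated groups the log2 change was -0.50 (SE 0.16, limma adjusted p = 0.0168). It was -0.45 (adjusted p = 0.0555) without LPS+CPZ replicate 3 and -0.40 (adjusted p = 0.0698) without LPS+EtOH replicate 1. It did not pass in TPM (adjusted p = 0.0767) or under quantile normalisation (adjusted p = 0.0527).

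Zfp608 (ENSMUSG00000052713), which represses Rag genes in mouse thymocytes, had the largest log2 excess over LPS in LPS+EtOH. It had 32.4, 24.9 and 21.3 FPKM in LPS+CPZ, 34.6, 30.2 and 28.3 in LPS+EtOH, against 5.99, 5.41 and 3.46 in LPS. The treated groups overlapped with each other and lay above LPS, 5.28-fold in LPS+CPZ and 6.27-fold in LPS+EtOH. Their log2 difference of -0.25 did not pass as deposited (SE 0.19, limma adjusted p = 0.251), but was -1.06 on the median-ratio scale (adjusted p = 0.00142).

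Zfp523 (ENSMUSG00000024220), the mouse counterpart of ZNF76 and a relative of Zfp143, had 5.53, 6.92 and 5.15 FPKM in LPS+CPZ, 11.2, 12.03 and 9.56 in LPS+EtOH, against 1.98, 2.95 and 1.98 in LPS. The 3 groups did not overlap. Its log2 change in LPS+CPZ against LPS+EtOH was -0.80 (SE 0.15, limma adjusted p = 0.000767). Zfp821 followed the same order, at 5.19 ± 0.245 FPKM in LPS+CPZ, 7.75 ± 1.12 in LPS+EtOH and 1.71 ± 0.235 in LPS (SD, n = 3). Zfp319 averaged 6.60 ± 0.893 FPKM in LPS+CPZ, 6.42 ± 0.659 in LPS+EtOH and 3.78 ± 0.151 in LPS. These 5 genes, with Zfp691 and Zfp874b, were the 7 higher in both treated groups than in LPS on all 4 scales.

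**Figure D4:**
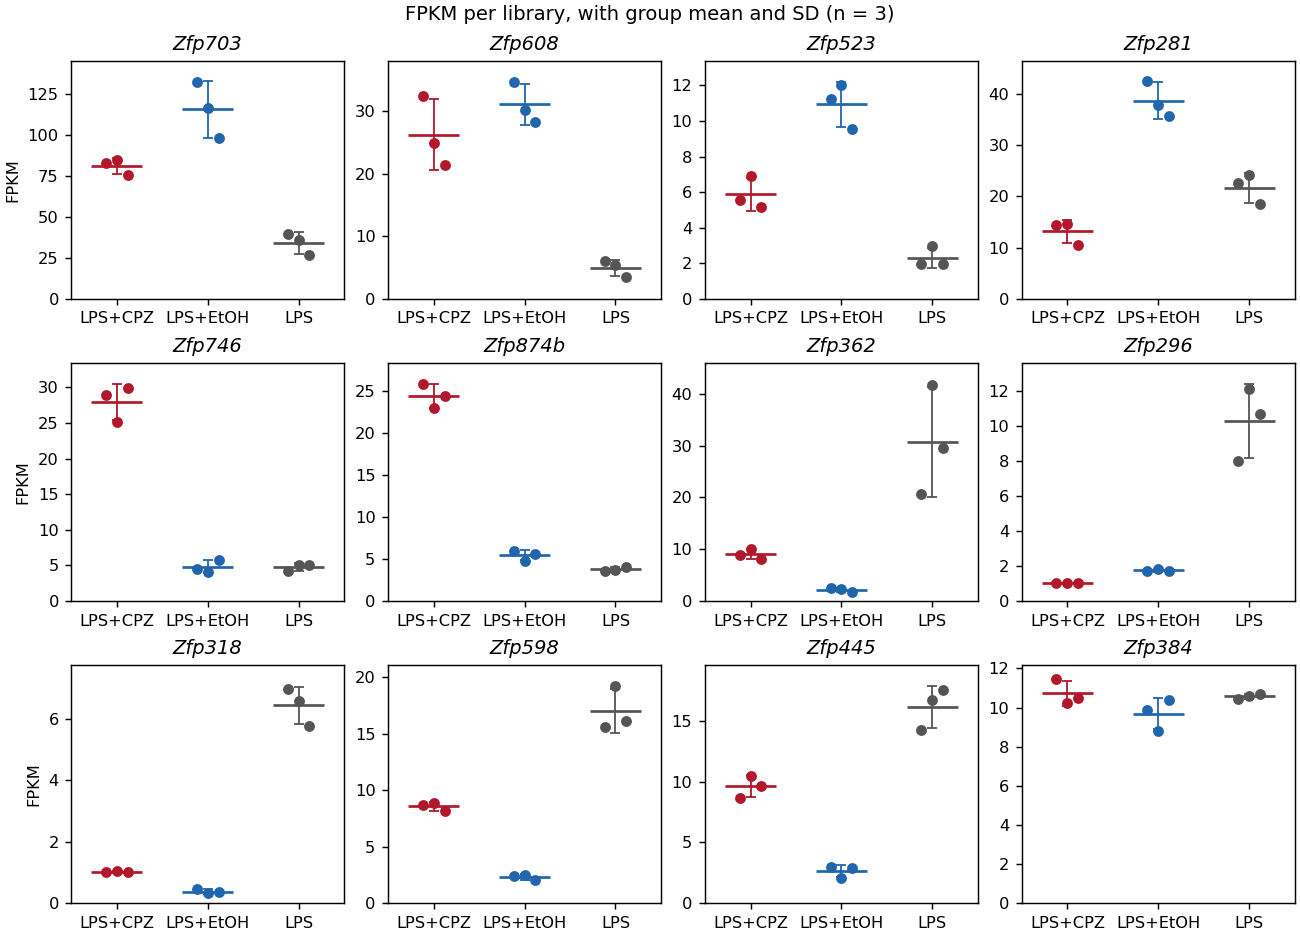
FPKM in each library (points), group mean (horizontal line) and SD (bar, n = 3) for 12 Zfp genes in LPS+CPZ, LPS+EtOH and LPS; each panel has its own axis from 0. Zfp703, Zfp608 and Zfp523 are high in both treated groups, Zfp281 in LPS+EtOH, Zfp746 and Zfp874b in LPS+CPZ, and Zfp362, Zfp296, Zfp318, Zfp598 and Zfp445 in LPS.

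Zfp281 (ENSMUSG00000041483), a factor known from mouse embryonic stem cells, was the clearest gene high in LPS+EtOH and low in LPS+CPZ. It had 14.4, 14.6 and 10.55 FPKM in LPS+CPZ, 42.5, 37.7 and 35.6 in LPS+EtOH, against 22.5, 24.1 and 18.4 in LPS. No groups overlapped. In LPS+CPZ it fell against LPS+EtOH with a log2 change of -1.49 (SE 0.15, limma adjusted p = 1.13e-05) and -2.30 on the median-ratio scale. Its fall in LPS+CPZ against LPS was called as deposited, but was -0.34 and did not pass on the median-ratio scale (adjusted p = 0.0912).

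Zfp574 and Zfp263 were also highest in LPS+EtOH, but their means in LPS+CPZ and LPS were close to each other. Zfp574 averaged 3.37 ± 0.335 FPKM in LPS+CPZ, 5.32 ± 0.783 in LPS+EtOH and 3.52 ± 0.324 in LPS (SD, n = 3). Its log2 change between the treated groups was -0.53 (SE 0.12, limma adjusted p = 0.00291). Zfp263 averaged 15.3 ± 2.88 FPKM in LPS+CPZ, 21.9 ± 1.49 in LPS+EtOH and 15.9 ± 3.01 in LPS. Its change of -0.50 between the treated groups (limma adjusted p = 0.0146) was -0.40 (adjusted p = 0.0573) without LPS+CPZ replicate 1. Without LPS+EtOH replicate 1 it was -0.45 (adjusted p = 0.0508). Its rise in LPS+EtOH against LPS was called as deposited, but did not pass in TPM (limma adjusted p = 0.119).

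Zfp746 (ENSMUSG00000057691), the parkin substrate PARIS that represses the gene of PGC-1 alpha, had the largest rise in LPS+CPZ against LPS+EtOH among the 215 tested genes. It had 28.9, 25.1 and 29.9 FPKM in LPS+CPZ, 4.45, 4.07 and 5.80 in LPS+EtOH, against 4.14, 5.00 and 5.09 in LPS. The LPS+CPZ values lay far above the other 6, while LPS+EtOH and LPS overlapped. The log2 change in LPS+CPZ against LPS+EtOH was 2.34 (SE 0.14, limma adjusted p = 5.4e-07) and 1.61 on the median-ratio scale. The 7 members of its run on chromosome 6, which also holds Zfp777, included 6 that rose between the treated groups and none that fell. Of all tested genes 61.4% rose. On all 4 scales 3 of the 7 rose, where 26.9% of all tested genes did. This run was named for Zfp746, and Zfp777 is also among the 6 largest rises, so the choice set part of these counts.

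Several DNA-binding regulators were highest in LPS. Zfp362 (ENSMUSG00000028799), a close relative of Zfp384, had 8.81, 10.1 and 8.19 FPKM in LPS+CPZ, 2.41, 2.29 and 1.77 in LPS+EtOH, against 20.7, 41.8 and 29.6 in LPS. No groups overlapped, and the log2 change between the treated groups was 1.67 (SE 0.21, limma adjusted p = 4.89e-05). Zfp296, which raises the yield of induced pluripotent cells in mouse, had 1.00, 1.03 and 1.04 FPKM in LPS+CPZ, 1.69, 1.85 and 1.70 in LPS+EtOH, against 7.98, 12.1 and 10.7 in LPS. It was the 1 gene of the 43 lower in both treated groups that was also lower in LPS+CPZ than in LPS+EtOH. That change was -0.44 (SE 0.14, limma adjusted p = 0.0138), and -0.16 with a pseudocount of 5 (adjusted p = 0.121).

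Zfp318, needed for IgD on mouse B cells, had 0.995, 1.03 and 1.02 FPKM in LPS+CPZ, 0.447, 0.313 and 0.354 in LPS+EtOH, against 6.95, 6.58 and 5.78 in LPS. Its LPS mean was 17.3 times that of LPS+EtOH and 6.34 times that of LPS+CPZ. The 8 B cell markers other than Ighm were likewise lowest in LPS+EtOH, and their LPS means were 2.77 to 7.06 times those of LPS+CPZ. Ighm itself averaged 1160 FPKM in LPS+CPZ, 119.5 in LPS+EtOH and 1249 in LPS. The part of B cells in the values of Zfp318 was not tested. The 9 T and NK cell markers summed to 16.7 to 28.8 FPKM in LPS+CPZ, 1.63 to 3.52 in LPS+EtOH and 80.0 to 108 in LPS, and Klrb1c among them was listed at 0 in all LPS+EtOH libraries.

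Zfp335, required for T cell maturation in mouse, averaged 7.02 ± 0.978 FPKM in LPS+CPZ, 3.05 ± 0.583 in LPS+EtOH and 13.0 ± 0.345 in LPS (SD, n = 3). Zfp275 averaged 1.85 ± 0.245 FPKM in LPS+CPZ, 0.717 ± 0.249 in LPS+EtOH and 9.06 ± 1.26 in LPS, and Zfp146, a protein made almost wholly of fingers, 6.19 ± 1.34 FPKM in LPS+CPZ, 2.35 ± 0.699 in LPS+EtOH and 15.7 ± 1.69 in LPS. All 3 rose in LPS+CPZ against LPS+EtOH, with log2 changes of 0.99, 0.74 and 1.10 (limma adjusted p = 7.23e-05, 0.000775 and 0.000267). Under quantile normalisation the change of Zfp275 was 0.15 and did not pass (adjusted p = 0.274).

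Zfp217, a corepressor gene, was low in both treated groups alike. It averaged 3.83 ± 0.779 FPKM in LPS+CPZ, 3.80 ± 0.433 in LPS+EtOH and 11.3 ± 0.741 in LPS. The change between the treated groups was 0.00 (SE 0.14, limma adjusted p = 0.991) as deposited and -0.68 on the median-ratio scale (adjusted p = 0.000716). Zfp341, which drives the Stat3 gene, averaged 1.22 ± 0.0974 FPKM in LPS+CPZ, 0.408 ± 0.0933 in LPS+EtOH and 1.59 ± 0.335 in LPS. Zfp410, known for activating Chd4, averaged 1.00 ± 0.114 FPKM in LPS+CPZ, 0.441 ± 0.0833 in LPS+EtOH and 1.89 ± 0.107 in LPS.

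Among partners of Zmynd8, Zfp592 averaged 16.9 ± 0.619 FPKM in LPS+CPZ, 7.60 ± 0.976 in LPS+EtOH and 13.8 ± 0.610 in LPS. It rose between the treated groups by a log2 change of 1.06 (SE 0.11, limma adjusted p = 1.55e-05). Zfp687, the other of these partners, averaged 2.68 ± 0.537 FPKM in LPS+CPZ, 1.12 ± 0.340 in LPS+EtOH and 3.88 ± 0.276 in LPS. Its change of 0.80 (adjusted p = 0.0006) was 0.30 on the median-ratio scale (adjusted p = 0.0953).

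Members that act on ribosomes and RNA split by gene. Zfp598 (ENSMUSG00000041130), the ubiquitin ligase that marks collided ribosomes, had 8.71, 8.83 and 8.12 FPKM in LPS+CPZ, 2.38, 2.52 and 2.04 in LPS+EtOH, against 15.6, 19.2 and 16.2 in LPS. The groups did not overlap, and the log2 change in LPS+CPZ against LPS+EtOH was 1.53 (SE 0.12, limma adjusted p = 1.97e-06). Zfp593, whose yeast counterpart Bud20 acts in export of the large ribosomal subunit, averaged 1.97 ± 0.456 FPKM in LPS+CPZ, 0.774 ± 0.293 in LPS+EtOH and 8.50 ± 1.49 in LPS. Zfp622, whose yeast counterpart Rei1 acts in maturation of that subunit, was level by contrast, at 6.02 ± 0.856 FPKM in LPS+CPZ, 6.24 ± 0.703 in LPS+EtOH and 5.65 ± 0.946 in LPS. Its change between the treated groups was -0.05 (adjusted p = 0.772), and -0.78 on the median-ratio scale (adjusted p = 0.00022).

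Zfp106, an RNA-binding protein needed for motor neurons and muscle in mouse, had 18.9, 17.5 and 16.02 FPKM in LPS+CPZ, 6.59, 5.495 and 6.02 in LPS+EtOH, against 26.5, 31.0 and 31.9 in LPS. It rose in LPS+CPZ against LPS+EtOH by a log2 change of 1.39 (SE 0.12, limma adjusted p = 4.06e-06), with no overlap. Zfp830, a splicing protein, averaged 15.0 ± 1.26 FPKM in LPS+CPZ, 3.59 ± 0.390 in LPS+EtOH and 12.6 ± 0.863 in LPS, and rose by 1.80 (SE 0.12, adjusted p = 8.11e-07). Zfp638, which in human cells helps silence unintegrated retroviral DNA, averaged 3.12 ± 0.174 FPKM in LPS+CPZ, 2.39 ± 0.436 in LPS+EtOH and 3.77 ± 0.128 in LPS. Its change of 0.29 (adjusted p = 0.0456) was -0.33 on the median-ratio scale (adjusted p = 0.0181).

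Zfp91 and Zfp451 act on other proteins. Zfp91, a ubiquitin ligase for the NF-kB kinase NIK, had 11.1, 9.16 and 9.78 FPKM in LPS+CPZ, 4.05, 3.39 and 3.83 in LPS+EtOH, against 12.9, 12.6 and 14.2 in LPS. Its log2 change in LPS+CPZ against LPS+EtOH was 1.21 (SE 0.11, limma adjusted p = 7.27e-06). In LPS+CPZ against LPS its median-ratio change was -0.04 (adjusted p = 0.793). Zfp451, a SUMO ligase, averaged 1.26 ± 0.397 FPKM in LPS+CPZ, 0.330 ± 0.0584 in LPS+EtOH and 1.78 ± 0.177 in LPS, and its LPS+CPZ and LPS values overlapped.

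A few genes were near level between the treated groups as deposited. Zfp384, which binds promoters of matrix genes, had 11.5, 10.2 and 10.5 FPKM in LPS+CPZ, 9.88, 8.81 and 10.4 in LPS+EtOH, against 10.4, 10.6 and 10.7 in LPS. Zfp143, known for binding promoters at the ends of chromatin loops, averaged 10.6 ± 1.29 FPKM in LPS+CPZ, 9.17 ± 0.932 in LPS+EtOH and 8.83 ± 0.695 in LPS. Zfp207, which loads Bub3 at kinetochores, averaged 17.2 ± 1.46 FPKM in LPS+CPZ, 15.2 ± 1.61 in LPS+EtOH and 19.4 ± 1.41 in LPS. It was called lower in LPS+EtOH than in LPS as deposited, but not without LPS+EtOH replicate 2 (limma adjusted p = 0.0706). The log2 differences between the treated groups were 0.13, 0.18 and 0.17 (limma adjusted p = 0.259, 0.199 and 0.213). On the median-ratio scale the same differences were -0.63, -0.58 and -0.62 and passed the test (adjusted p = 0.000473, 0.00284 and 0.000592).

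Other members varied widely between replicates, and their calls depended on the fit. Zfp292 had 47.2, 33.4 and 2.59 FPKM in LPS+CPZ, 7.33, 5.44 and 7.15 in LPS+EtOH, against 7.79, 1.44 and 8.57 in LPS. Its LPS+CPZ values overlapped both other groups. The log2 change between the treated groups was 1.26 (SE 0.84, limma adjusted p = 0.193), and 2.42 without LPS+CPZ replicate 3 (adjusted p = 0.00183). Zfp131, a BTB-domain factor, averaged 17.7 ± 6.16 FPKM in LPS+CPZ, 21.7 ± 11.1 in LPS+EtOH and 36.1 ± 14.7 in LPS, and all 3 groups overlapped. It was not called as deposited. In TPM its log2 change in LPS+CPZ against LPS was -1.05 and passed (limma adjusted p = 0.0415). Between the treated groups it was -1.03 on the median-ratio scale (limma adjusted p = 0.048). Zfp148, which binds GC-rich promoters, averaged 5.10 ± 1.32 FPKM in LPS+CPZ, 3.03 ± 1.26 in LPS+EtOH and 5.79 ± 1.80 in LPS, and its change of 0.62 between the treated groups did not pass (adjusted p = 0.0515). That value was 0.80 without LPS+CPZ replicate 1 and 0.86 without LPS+EtOH replicate 3, and passed in both cases (adjusted p = 0.0266 and 0.0129). In LPS+EtOH against LPS Zfp148 was called lower as deposited. That change was 0.19 on the median-ratio scale and did not pass (limma adjusted p = 0.478).

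The 6 members too weak for the test were Zfp260, Zfp251, Zfp709, Zfp946, Zfp827 and Zfp780b. Zfp260 had 0.410, 0.442 and 0.345 FPKM in LPS+CPZ, 0.502, 0.319 and 0.440 in LPS+EtOH, against 0.551, 1.63 and 3.66 in LPS, so its LPS mean rested on replicates 2 and 3. Zfp780b averaged 0.705 ± 0.0446 FPKM in LPS+CPZ, 0.148 ± 0.0478 in LPS+EtOH and 1.03 ± 0.161 in LPS. A gene of this kind can pass the filter only through groups in which it is high.

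The Zbtb, Zscan and Zkscan genes are related families. Of 33 Zbtb genes above the same LPS floor, which pair fingers with a BTB domain, 19 rose and 2 fell in LPS+CPZ against LPS+EtOH, beside 61.4% and 15.2% of all tested genes, and on the median-ratio scale 6 rose and 11 fell, beside 33.9% and 33.0%. In LPS+EtOH against LPS 2 were higher and 21 lower, beside 19.0% and 64.6%. Between the treated groups 4 of 5 Zscan genes were higher in LPS+CPZ and 0 lower, and of 7 Zkscan genes 5 were higher and 1 lower. Zfp36, Zfp36l1 and Zfp36l2 carry the prefix but encode CCCH proteins that destabilise mRNA, and were not members. Zfp36 averaged 526 ± 30.7 FPKM in LPS+CPZ, 624 ± 68.4 in LPS+EtOH and 347 ± 61.0 in LPS, well above every Zfp member.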

How the data were processed

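The deposited table holds FPKM per gene for 9 libraries, computed by the authors from strand-specific TruSeq libraries, per the labels' protocols. Reads passed through STAR, StringTie and FastQC 0.11.2, per the submitters' processing notes, which give the human build hg38, although the IDs are of mouse (55154 of 55335 found in GENCODE M21). No gene coordinates are therefore given, and RefSeq promoters carry their own build. FPKM is relative to each library's fragments, so abundant transcripts such as globin lower all others.

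The 11721 genes that reached 1 FPKM in 3 or more libraries were fitted with limma 3.58.1 in R 4.3.3 on log2(FPKM + 1), with all 9 libraries, group as the only term, eBayes with trend, 6 residual degrees of freedom and two-sided Benjamini-Hochberg adjusted p under 0.05 over all tested genes. The code was tested on simulated data. Group fold values are ratios of mean FPKM. Matched shares weight other protein-coding genes to the Zfp genes' 5 ranges of LPS level.

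Members, gene lists and naming rule were chosen with earlier results of these data known. The rule named 46 members: the 8 highest in LPS, the 6 largest rises and falls per comparison past the threshold without overlap, 23 genes of known role, and those beside the floor. Genes of chromosomal runs, those not tested, and genes without a protein were named after their values were seen. Replicates were not treated as paired in the main fit. Correlations of deviations ran from -0.00645 to 0.26 for same-numbered libraries and from -0.204 to 0.127 for differently numbered ones. A weak pairing by number is therefore possible, and a fit with a replicate block is among the alternatives. Alternatives are given at the end. Leaving out globin genes and counting calls shared by 4 scales were added after the data were seen.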

Additional observations from a re-analysis of the deposited data

How the results depend on the processing

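The counts of Zfp genes higher and lower, and their median log2 change, are given for LPS+CPZ against LPS+EtOH, then LPS+EtOH against LPS, then LPS+CPZ against LPS. Quantile normalisation gave 66 and 40 (median 0.054), 63 and 75 (-0.0605), and 56 and 53 (-0.0128). Median-ratio scaling gave 93 and 47 (0.198), 60 and 97 (-0.252), and 49 and 59 (-0.039). TPM gave medians of 0.927, -1.35 and -0.408, a pseudocount of 0.1 gave 1.08, -1.49 and -0.418, and one of 5 gave 0.209, -0.32 and -0.124. A filter of 5 FPKM left fewer genes to call, with 43 higher in the first comparison, 41 lower in the second (median -0.366), and 17 higher and 30 lower in the third. Without globin genes 7 were higher in LPS+EtOH than in LPS (median -1.07) and 16 in LPS+CPZ than in LPS (median -0.504). The 159 members at 2 FPKM or more in LPS had medians of 0.653 and -0.976 in the first 2 comparisons, and members chosen over all 9 libraries (187, 185 of them shared) had 0.653 in the first. Leaving out each library gave 141 to 155 higher and 7 to 11 lower (0.564 to 0.628), 11 to 14 and 147 to 161 (-0.933 to -0.827), and 23 to 29 and 76 to 102 (-0.337 to -0.238). With the replicate block the counts were 150 and 10, 14 and 160, and 24 and 90. Among named genes the block lost the call of Zfp638 between the treated groups (limma adjusted p = 0.0689). It also lost that of Zfp592 in LPS+CPZ against LPS (limma adjusted p = 0.0614). The call of Zfp148 between the treated groups was gained (limma adjusted p = 0.0202). So was that of Zfp131 in LPS+CPZ against LPS (limma adjusted p = 0.0247).

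Signs turned under scaling for the genes that follow, some of them called as deposited, and what sets the shift of all genes was not tested. Under median-ratio scaling the log2 change in LPS+CPZ against LPS+EtOH was -0.64 for Zfp52, -0.62 for Zfp207, -0.70 for Zfp319, -0.68 for Zfp217, -0.58 for Zfp143, -0.63 for Zfp384 and -0.33 for Zfp638. Under quantile normalisation it was -0.42 for Zfp319, -0.0026 for Zfp318, -0.55 for Zfp217, -0.093 for Zfp410 and -0.31 for Zfp638. In LPS+EtOH against LPS median-ratio scaling gave 0.77 for Zfp52, 0.79 for Zfp207, 0.99 for Zfp746, 0.19 for Zfp148, 0.97 for Zfp384, 0.30 for Zfp592 and 0.39 for Zfp638, and quantile normalisation gave 0.089 for Zfp207, 0.89 for Zfp746, 0.17 for Zfp148, 0.56 for Zfp384 and 0.46 for Zfp638. In LPS+CPZ against LPS, Zfp574 stood at 0.32 under quantile normalisation and Zfp592 at -0.015 without globin genes. With 3 pools a group and no read counts, weak members are the least certain.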
